A study of Mus musculus with 16 samples.

Results

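The region described here is the first 70 Mb of mouse chromosome 12 (build mm9, chr12:1-70000000), the part of the chromosome that lies next to the centromere. It was taken as every junction on chromosome 12 whose prey position was at or below 70000000, on either strand and in all 16 libraries. It held 512 junctions, which is 1.53% of the 33479 junctions outside chromosome 15 and 0.363% of all 141167 junctions. They lay between 3265552 and 69987821, at 501 distinct places.

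High-throughput genome-wide translocation sequencing reads the genomic ends (prey) that become joined to one chosen DNA break (bait). In every library the bait break was made by the nuclease I-SceI, expressed with GFP from a retrovirus, in IgM+ B cells from the spleens of 129sv mice aged 6 to 8 weeks, in which 1 c-myc allele on chromosome 15 carries 25 target sites of the enzyme in intron 1. The libraries labelled ATM-/- under RP105 (n = 3) and those labelled WT under RP105 (n = 3) came from cells stimulated with 2 µg/mL of RP105, with infection at 48 h and harvest at day 5. The ATM-/- libraries under aCD40/IL4 (n = 3), the WT libraries with KU55933 (n = 3) and the WT libraries without it (n = 4) came from cells stimulated with 1 µg/mL of antibody to CD40 and 20 ng/mL of IL4, with infection at 24 h and harvest at day 4, and KU55933 at 10 µM from the time of infection where it was used. The labels do not say whether replicates came from separate mice, so p-values measure the spread between these libraries.

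The kinase ATM reports broken DNA to the cell and helps to hold the ends until they are joined, and KU55933 inhibits it. Activated B cells break the Igh heavy chain locus on purpose, through the deaminase AID, and an Igh end that is not joined locally can be joined to the bait. Mouse chromosomes carry the centromere at one end, and Igh sits close to the other end of chromosome 12. The first 70 Mb therefore shares a chromosome with Igh but ends 44.4 Mb short of it, while the segments in between lie nearer to those breaks. The region served as the distant part of the same chromosome against which the rise of junctions near Igh can be read.

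Libraries held 586 to 5604 junctions outside chromosome 15, and 4484 to 18264 in all. Junctions at the Smu, Sg1 and Se switch regions, where activated B cells break Igh, numbered 70 to 466 in each aCD40/IL4 library and 0 to 16 in each RP105 library. The KU55933 and RP105 libraries were, by their read names, sequenced on another instrument type than the other aCD40/IL4 libraries, so for those comparisons sequencer and condition cannot be told apart. Sequencing runs were likewise inferred from how the read names begin. The RP105 libraries are named by their labels throughout. Between 100 and 110 Mb on chromosome 12 the labelled genotypes differed in opposite directions, with a log2 fold change of 2.38 ± 0.32 (SE) for ATM-deficient over WT under aCD40/IL4 and -2.31 ± 0.33 under RP105, and whether the RP105 labels stand for the genotypes was not tested.

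The place that recurred most in the region, the other places hit at the same base in 2 libraries, and a pair of junctions that began in a CA repeat are shown first, because the later counts return to them. Each line gives 6 bases of the mm9 reference beyond the junction in lower case and then the first 30 bases of the prey, read away from the junction. Capitals mark the prey at the shared places, and the repeat itself in the last 2 lines.
Dock4 place, chr12:41542880-41542915, + strand: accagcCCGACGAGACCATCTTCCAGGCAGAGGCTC
Unlabelled place, chr12:3364803-3364838, + strand: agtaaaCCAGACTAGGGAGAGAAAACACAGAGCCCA
Unlabelled place, chr12:35483815-35483850, + strand: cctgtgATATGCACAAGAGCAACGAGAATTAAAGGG
Npas3 place, chr12:54376458-54376493, - strand: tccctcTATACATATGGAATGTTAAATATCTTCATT
Unlabelled place, chr12:68840209-68840244, - strand: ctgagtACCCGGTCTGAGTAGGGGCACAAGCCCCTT
CA-repeat start in Dnmt3a, chr12:3809195-3809230, - strand: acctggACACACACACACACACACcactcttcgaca
CA-repeat start without a gene label, chr12:12183080-12183115, + strand: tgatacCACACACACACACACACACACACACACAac

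The first 70 Mb of chromosome 12 took more of the junctions in RP105 libraries labelled WT than in WT libraries under aCD40/IL4. It also took more in ATM-deficient than in WT libraries under aCD40/IL4, though that call was lost under several other settings. The labelled genotypes under RP105 had nearly equal shares. The region was the sparsest of the 4 stretches of the chromosome before Igh in each of the 5 groups, and in WT libraries under aCD40/IL4 it was the emptiest of all the first 70 Mb stretches compared.

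Under RP105, the libraries labelled ATM-deficient placed 2.39%, 1.61% and 2.08% of their junctions outside chromosome 15 in the region, which were 14, 12 and 24 junctions. Those labelled WT placed 2.34%, 1.88% and 1.76% there, from 38, 18 and 44 junctions. The groups overlapped throughout. The ATM-deficient libraries under aCD40/IL4 placed 1.87%, 1.22% and 1.88% there, from 41, 33 and 36 junctions. With KU55933 the shares were 1.05%, 1.42% and 1.78%, from 38, 77 and 100 junctions. The WT libraries under aCD40/IL4 had 0.689%, 0.879%, 0.663% and 1.37%, from only 9, 8, 10 and 10 junctions. WT replicate 4 lay above the lowest library of both the ATM-deficient and the KU55933 group, while the other 3 WT libraries lay below every library of the other groups.

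**Figure D1:**
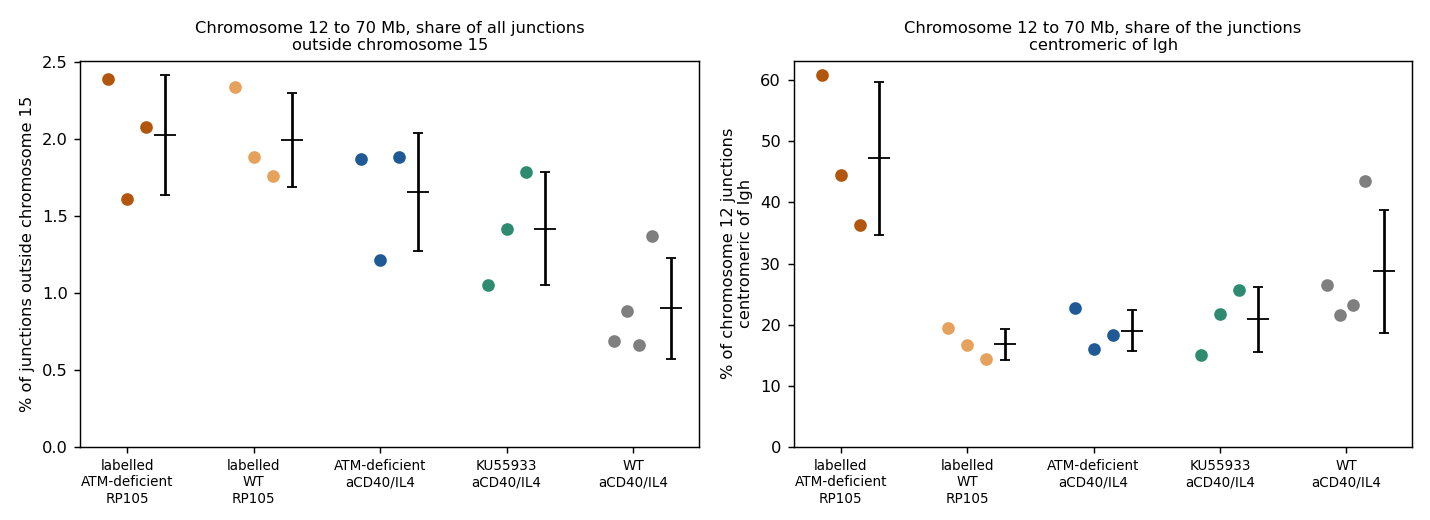
Each point is 1 library, and the bar beside each group is its mean ± SD. The left panel gives the region's share of junctions outside chromosome 15 in percent, where WT under aCD40/IL4 averaged 0.900% and both RP105 groups about 2.0%. The right panel gives its share of chromosome 12 junctions centromeric of Igh in percent, where the libraries labelled ATM-deficient under RP105 stand above the rest of their stimulus.

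Under aCD40/IL4 the mean share was 1.66 ± 0.382% in ATM-deficient libraries (SD, n = 3) and 0.900 ± 0.327% in WT libraries (SD, n = 4). The log2 fold change was 0.96 ± 0.29 (SE) with an adjusted p of 0.0192 by edgeR's quasi-likelihood test over 42 regions of the genome outside chromosome 15. Of those regions 14.3% were called in this comparison, the region among them. The exact two-sided permutation test of the shares gave p = 0.0857, which did not pass, and an adjusted p of 0.480 over 42 tests. With groups this small, no adjusted p of that test could fall under 0.05 here or below, so the adjusted values decide nothing. The call was lost when WT replicate 1 or 3, or ATM-deficient replicate 1 or 3, was left out (0.82 to 0.86, adjusted p 0.0680 to 0.133). It was also lost when chromosome 15 was counted too, except for 1 Mb either side of the break (0.75, adjusted p = 0.0803) and with the sequencing run as a block (0.67, adjusted p = 0.842). Within the 2 runs that held both genotypes, the share was 1.22% in the ATM-deficient library against 0.663% in the WT library in one, a log2 ratio of 0.88, and 1.88% against 1.37% in the other, a log2 ratio of 0.46.

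With KU55933 the share averaged 1.42 ± 0.365% (SD, n = 3), against 0.900 ± 0.327% in WT libraries (SD, n = 4). The log2 fold change was 0.80 ± 0.27 (SE) with an edgeR adjusted p of 0.0561, beside 7.14% of regions called, and the exact permutation p was 0.114 (adjusted p = 0.480). It passed without WT replicate 4 (1.00, adjusted p = 0.0275) and without KU55933 replicate 1 (0.94, adjusted p = 0.0136). The ATM-deficient libraries differed from the KU55933 libraries by 0.15 ± 0.21 (SE, edgeR adjusted p = 0.736, 7.14% of regions called). A range of 2 SE either side of that value runs from -0.26 to 0.57, so the data are compatible with differences anywhere in that range.

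Under RP105 the mean share was 2.03 ± 0.391% with the ATM-deficient label and 2.00 ± 0.305% with the WT label (SD, n = 3 each). The log2 fold change was 0.02 ± 0.29 (SE, edgeR adjusted p = 0.977, 14.3% of regions called), with 2 SE either side spanning -0.55 to 0.60, and the exact permutation p was 0.9, where 3 against 3 libraries cannot give less than 0.1. Its sign turned with TMM factors (-0.03). Within the run that held WT replicate 2 and ATM-deficient replicates 1 and 2, the mean share was 2.00% with the ATM-deficient label and 1.88% with the WT label. In the run that held replicate 3 of each, it was 2.08% with the ATM-deficient label and 1.76% with the WT label. In the same libraries the segment from 70 to 100 Mb changed by -1.60 ± 0.27, and the last stretch before Igh by -1.92 ± 0.29.

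Between stimuli, the region's share in WT libraries was 2.00 ± 0.305% under RP105 (SD, n = 3) and 0.900 ± 0.327% under aCD40/IL4 (SD, n = 4), and every RP105 library lay above every aCD40/IL4 library. The log2 fold change was 1.24 ± 0.30 (SE) with an edgeR adjusted p of 0.00121, where 14.3% of regions were called. The exact permutation p was 0.0286, the smallest that 3 against 4 libraries can give. It was 0.400 after adjustment over 42 tests, where no value under 0.05 was possible. The edgeR call was kept in all alternatives that were run, at log2 fold changes of 0.83 to 1.44 and adjusted p up to 0.0213. The sequencing run as a block was not among them, because these groups were read on different instrument types, so sequencer and stimulus cannot be told apart. In ATM-deficient libraries the shares were 2.03 ± 0.391% under RP105 and 1.66 ± 0.382% under aCD40/IL4 (SD, n = 3 each), with a log2 fold change of 0.31 ± 0.28 (SE, edgeR adjusted p = 0.562, 16.7% of regions called). The interaction, meaning the difference between genotypes under RP105 less the one under aCD40/IL4, was -0.93 ± 0.41 (SE), with an edgeR adjusted p of 0.151 (16.7% of regions called), so the 2 stimuli were not shown to differ in it here. Without ATM-deficient replicate 2 under aCD40/IL4 that interaction passed (-1.14, adjusted p = 0.0373), while it shrank to -0.33 when only 1 Mb either side of the break was left out (adjusted p = 0.482) and to -0.51 with the sequencing run as a block (adjusted p = 0.871).

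As a share of all junctions, chromosome 15 included, the order between groups was another one. Under RP105 the region took 0.204 ± 0.0348% with the ATM-deficient label and 0.434 ± 0.0772% with the WT label (SD, n = 3 each). Under aCD40/IL4 it took 0.521 ± 0.125% in ATM-deficient libraries (SD, n = 3), 0.453 ± 0.0933% with KU55933 (SD, n = 3) and 0.150 ± 0.0433% in WT libraries (SD, n = 4). On this scale the genotypes did not overlap under either stimulus. The same held for all junctions outside chromosome 15. Under RP105 these were 586 of 6304, 744 of 7342 and 1156 of 10658 junctions with the ATM-deficient label. With the WT label they were 1624 of 7278, 956 of 4484 and 2496 of 11627. Under aCD40/IL4 they were 2192 of 7725, 2714 of 8449 and 1912 of 5622 in ATM-deficient libraries. In WT libraries they were 1307 of 6899, 910 of 5899, 1509 of 8379 and 731 of 4674. The region's shares of all junctions thus also move with how many junctions each library held on chromosome 15.

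Density was counted as junctions per Mb per 1000 junctions outside chromosome 15, over 67 Mb because no junction lay in the first 3 Mb of any autosome. The region held 0.302 ± 0.0583 with the ATM-deficient label and 0.298 ± 0.0454 with the WT label under RP105, and 0.247 ± 0.0569 in ATM-deficient, 0.212 ± 0.0545 in KU55933 and 0.134 ± 0.0488 in WT libraries under aCD40/IL4. The first 70 Mb of 16 other chromosomes, all autosomes but 12, 15 and 19, held between 0.344 ± 0.0204 in WT libraries under aCD40/IL4 and 0.367 ± 0.0131 in libraries labelled ATM-deficient under RP105. Chromosome 12 was lower than that mean in 16 of 16 libraries, with an exact sign-flip permutation p of 3.05e-05 over libraries, the smallest that 16 can give.

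The shortfall was not equal between groups. The region's density divided by that of the other chromosomes was 0.827 ± 0.182 and 0.855 ± 0.124 in libraries labelled ATM-deficient and WT under RP105, 0.685 ± 0.144 in ATM-deficient, 0.592 ± 0.157 in KU55933 and 0.395 ± 0.157 in WT libraries under aCD40/IL4. Ranked from the densest among the 17 chromosomes, chromosome 12 stood in place 11 and place 12 in the RP105 groups labelled ATM-deficient and WT, in place 16 in ATM-deficient and 15 in KU55933 libraries, and in place 17, the last, in WT libraries under aCD40/IL4. In that last group the next lowest chromosome held 0.208 per Mb and the median one 0.334. In the comparisons of ATM-deficient with WT and KU55933 with WT under aCD40/IL4 and of RP105 with aCD40/IL4 in WT libraries, all of which share the WT aCD40/IL4 libraries, chromosome 12 had the highest log2 fold change of the 17 stretches. The other 16 ranged from -0.32 to 0.52, from -0.29 to 0.36 and from -0.44 to 0.42 in those 3 comparisons.

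**Figure D2:**
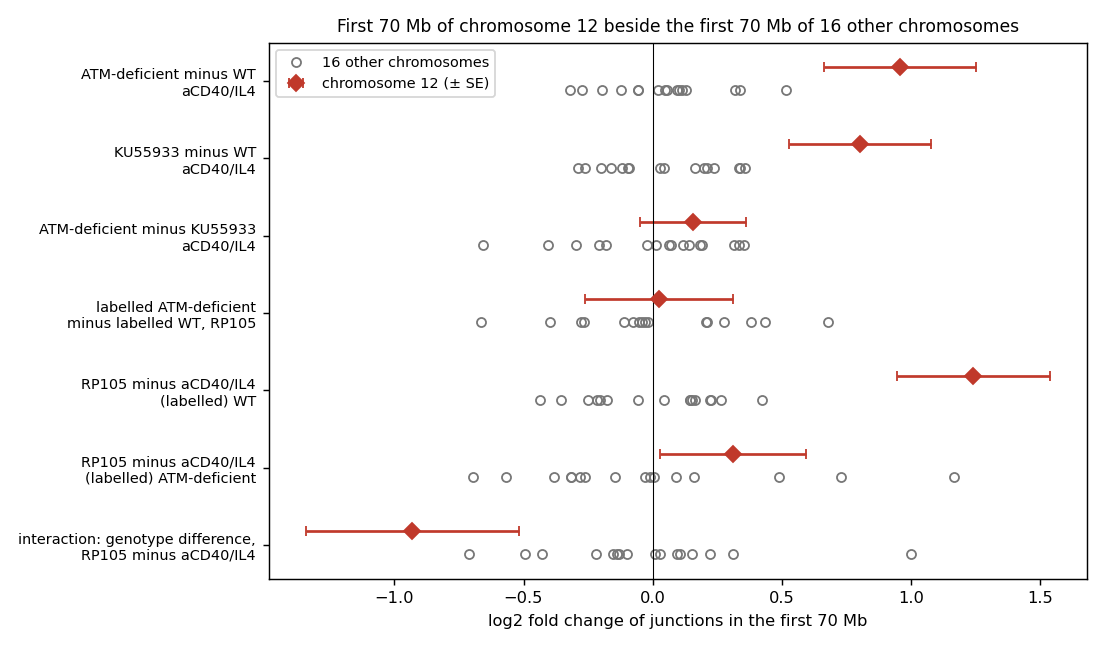
The x axis is the log2 fold change of junctions in the first 70 Mb of a chromosome, and each row is 1 comparison. Open circles are 16 other chromosomes and the diamond with its bar is chromosome 12 ± SE, which lies outside the circles in the 3 comparisons against WT libraries under aCD40/IL4 and in the interaction.

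Toward Igh the density went up, though not evenly, and the end of the region was close to where it began to. Just inside the 70 Mb bound, between 60 and 70 Mb, groups averaged 0.143 ± 0.177 and 0.300 ± 0.0821 in libraries labelled ATM-deficient and WT under RP105, and 0.220 ± 0.132 in ATM-deficient, 0.190 ± 0.141 in KU55933 and 0.119 ± 0.197 in WT libraries under aCD40/IL4. Just outside it, between 70 and 80 Mb, they averaged 0.364 ± 0.0345 and 0.976 ± 0.153 in libraries labelled ATM-deficient and WT under RP105, and 0.610 ± 0.165 in ATM-deficient, 0.773 ± 0.101 in KU55933 and 0.280 ± 0.0817 in WT libraries under aCD40/IL4. The outer window was the denser one in 14 of 16 libraries. From 110 Mb to the start of Igh the density was 1.79 ± 0.823 and 7.15 ± 0.785 in libraries labelled ATM-deficient and WT under RP105, and 4.87 ± 0.669 in ATM-deficient, 5.00 ± 0.717 in KU55933 and 1.54 ± 0.478 in WT libraries under aCD40/IL4.

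Of all chromosome 12 junctions centromeric of Igh, the region held 60.9%, 44.4% and 36.4% in the libraries labelled ATM-deficient under RP105, from 14 of 23, 12 of 27 and 24 of 66 junctions. With the WT label it held 19.4%, 16.7% and 14.3%, from 38 of 196, 18 of 108 and 44 of 307. The groups did not overlap, and the exact permutation p was 0.1, the smallest possible. After adjustment over 42 tests it was 0.480, where no value under 0.05 was possible. Under aCD40/IL4 the same share was 19.01 ± 3.36% in ATM-deficient libraries (SD, n = 3), 20.8 ± 5.37% with KU55933 (SD, n = 3) and 28.7 ± 10.1% in WT libraries (SD, n = 4).

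**Figure D3:**
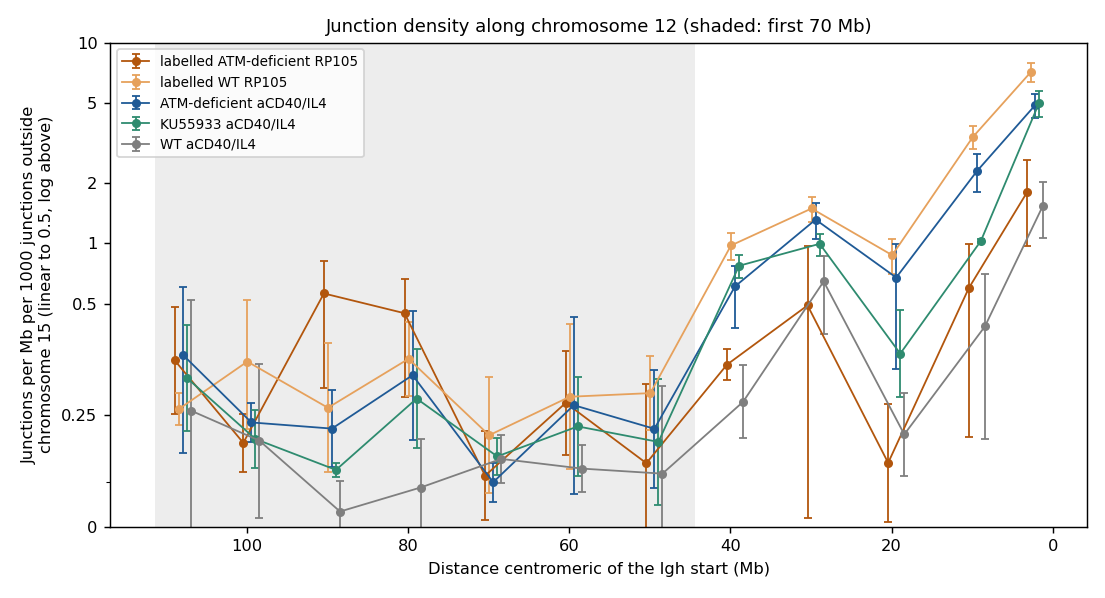
The x axis is the distance centromeric of the Igh start in Mb, and the y axis is junctions per Mb per 1000 junctions outside chromosome 15, linear up to 0.5 and logarithmic above. Points are group means and bars SD over libraries, and the shaded stretch is the first 70 Mb, where group means stay between 0.0342 and 0.563 while the stretch next to Igh reaches 7.15.

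Within the region the densest windows differed between groups. The libraries labelled ATM-deficient under RP105 were densest from 20 to 30 Mb, at 0.563 ± 0.252, and the window from 30 to 40 Mb held 0.479 ± 0.187. Those labelled WT were at 0.377 ± 0.0835 from 30 to 40 Mb and 0.370 ± 0.152 from 10 to 20 Mb. ATM-deficient and KU55933 libraries under aCD40/IL4 were densest in the first window, with 0.386 ± 0.221 and 0.334 ± 0.119. The WT libraries under aCD40/IL4 also had their highest value there, 0.260 ± 0.264, with 0, 1, 2 and 4 junctions in their 4 libraries.

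**Figure D4:**
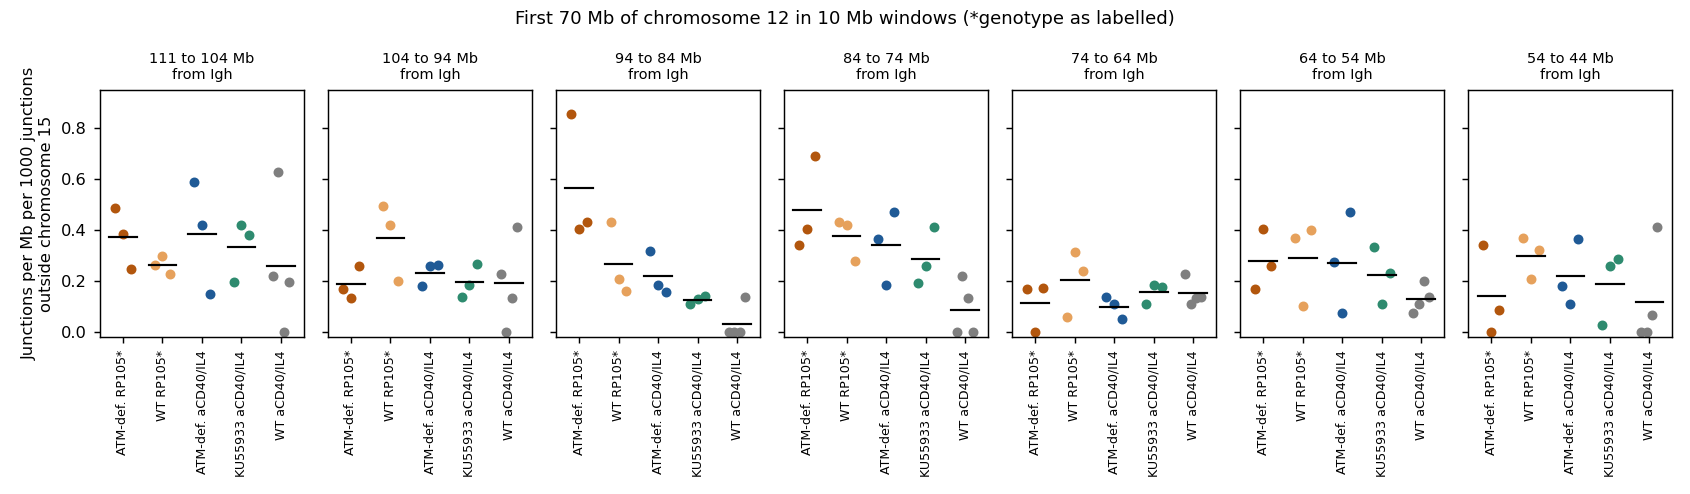
Each panel is a 10 Mb window of the first 70 Mb, headed by its distance from the Igh start, and each point is 1 library with the group mean as a line, in junctions per Mb per 1000 junctions outside chromosome 15. In the third panel 3 of the 4 WT libraries under aCD40/IL4 lie at 0 and every library of the other groups lies above 0.1.

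The window from 20 to 30 Mb was the one where WT libraries under aCD40/IL4 stood lowest, with 1 junction among 4457 outside chromosome 15. The RP105 libraries labelled ATM-deficient and WT held 13 each among 2486 and 5076, the ATM-deficient libraries under aCD40/IL4 held 15 among 6818 and the KU55933 libraries 19 among 14642. Against the single WT junction, the pooled ratio was 11.4 for RP105 labelled WT (exact 95% interval 1.71 to 485), 9.81 for ATM-deficient (1.51 to 413) and 5.78 for KU55933 (0.919 to 240). These intervals cover counting error only and pool junctions over libraries. They also make no allowance for the window having been singled out by its low WT count, so they do not test it. None of the 7 windows of 10 Mb in the region passed edgeR's test among 258 windows in any of the 7 comparisons. Without WT replicate 4 under aCD40/IL4, which held the single junction, the window from 20 to 30 Mb passed between stimuli in WT libraries (adjusted p = 0.0185), as it did with the replicate number as a block (adjusted p = 0.0203). In the whole genome 0.388% passed in each of the 3 comparisons within aCD40/IL4, 0.775% between the genotypes labelled under RP105, 2.71% and 4.26% between stimuli in WT and in ATM-deficient libraries, and 1.55% in the interaction. At an unadjusted p under 0.05 the region's windows from 20 to 30 Mb (2.99 ± 1.01, adjusted p = 0.137) and from 30 to 40 Mb (1.79 ± 0.69, adjusted p = 0.341) had higher values in ATM-deficient than in WT libraries under aCD40/IL4, where 19 of all 258 windows were under that p.

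In windows of 20 Mb, the stretch from 20 to 40 Mb passed in 3 comparisons. It held 31 junctions in RP105 libraries labelled WT, 37 in ATM-deficient and 63 in KU55933 libraries, against 5 in WT libraries under aCD40/IL4. Its log2 fold change was 2.39 ± 0.56 for RP105 over aCD40/IL4 in WT libraries (edgeR adjusted p = 0.000895, 4.41% of 136 windows called), 2.22 ± 0.55 for ATM-deficient over WT (adjusted p = 0.00468, 1.47% called) and 1.88 ± 0.54 for KU55933 over WT (adjusted p = 0.0159, 2.94% called). All 3 share the WT libraries under aCD40/IL4. At the 20 Mb size, the stretches from 0 to 20 Mb and from 40 to 60 Mb were not called in any comparison. The smaller window from 40 to 50 Mb was not called in the main fit, like every other window of its size in the region. Its density was 0.115 ± 0.0992 and 0.205 ± 0.130 in the RP105 groups labelled ATM-deficient and WT. Under aCD40/IL4 its density was 0.0999 ± 0.0433, 0.158 ± 0.0407 and 0.152 ± 0.0529 in ATM-deficient, KU55933 and WT libraries.

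Prey on the + and - strand were equally frequent, with 256 junctions on each. The + strand held 23 of 50 and 52 of 100 junctions in the RP105 libraries labelled ATM-deficient and WT, and 60 of 110, 103 of 215 and 18 of 37 in the ATM-deficient, KU55933 and WT libraries under aCD40/IL4. Across windows the + share ran between 44.9% from 50 to 60 Mb and 53.9% from 10 to 20 Mb. No group comparison of the strand share reached p = 0.05 by exact permutation, the lowest being 0.314.

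A gene label stood on 172 of the 512 junctions, while 66.4% had none. Averaged over the 16 libraries, 32.3 ± 6.84% of the region's junctions carried one, against 55.3 ± 3.05% of the junctions elsewhere outside chromosome 15 (SD, n = 16 each). The junctions elsewhere include the 2513 in Igh. The region was lower in 16 of 16 libraries, with an exact sign-flip permutation p of 3.05e-05 and 7.63e-05 after adjustment over 5 measures. The labelled share was highest from 50 to 60 Mb, at 50.0%, and 40 to 50 Mb, at 45.1%, and lowest from 10 to 20 Mb, at 18.4%. The prey bases themselves were also poorer in G and C: the first 30 bases averaged 43.3 ± 2.55% G+C in the region and 47.2 ± 0.906% elsewhere (SD, n = 16 each), lower in 16 of 16 libraries at the same p. Between groups the labelled share did not separate, with exact permutation p of 0.200 or more.

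The 172 labelled junctions were spread over 76 gene labels, of which 39 had a single junction and 14 had 2. Dock4, which encodes an exchange factor that activates Rac-type GTPases, led with 10 junctions in 10 libraries, 2 in each of the 5 groups. Of these 8 lay at the place shown first above, which leaves 2 Dock4 junctions elsewhere. Dock4 was the only label of the region with the 10 junctions needed for the test across 162 gene labels, in which it was not called (edgeR adjusted p between 0.645 and 1.00). Among those labels 0.617% were called for KU55933 over WT, 1.85% between stimuli in either genotype and 0% in the other 4 comparisons, where 4 to 17 labels had an unadjusted p under 0.05.

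Mdga2, a cell adhesion protein of synapses, followed with 8 junctions in 5 libraries. Of these 2 were in RP105 libraries labelled WT, 2 in ATM-deficient and 4 in KU55933 libraries, with none in WT libraries under aCD40/IL4. Dgkb, a diacylglycerol kinase, had 7 in 3 libraries, of which 2 were in ATM-deficient and 5 in KU55933 libraries. Prkd1, a serine/threonine kinase of the protein kinase D family, had 7 in 7 libraries, 2 in RP105 libraries labelled WT, 3 in KU55933 and 2 in WT libraries under aCD40/IL4. Slc25a21, a carrier of the inner mitochondrial membrane, had 6 in 3 libraries, of which 5 were in KU55933 libraries.

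Labels with 5 junctions were Klhl29, a kelch-like protein, Nbas, which acts in transport between Golgi and endoplasmic reticulum, Stxbp6, a binding partner of SNARE proteins, and Npas3, a transcription factor of neurons. Nbas had all 5 in different libraries, 3 ATM-deficient and 2 with KU55933. Klhl29 had its 5 in only 2 libraries, 4 of them in 1 KU55933 library. Labels with 4 were the nuclear receptor coactivator Ncoa1, the syntrophin Sntg2, the laminin chain Lamb1, the mitochondrial peptidase subunit Immp2l and the anchoring protein Akap6. Immp2l had all 4 in 2 KU55933 libraries. Those among the 20 leading labels with 3 were Asxl2, a chromatin regulator, the DNA methyltransferase Dnmt3a, the adenylate cyclase Adcy3, the calcium sensor Vsnl1, the Arf regulator Asap2 and the ubiquitin ligase Rnf144a. KU55933 libraries held the most junctions of any group, with 215 of the region's 512, and the counts of single genes were not tested against that share.

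A list of 20 genes of the region known as long or late-replicating, many of them neuronal or adhesion genes, accounted for 76 of the 172 labelled junctions, which is 44.2%. Of its members 16 had a junction and 8 had 5 or more, while Hdac9, Lrrn3, Mipol1 and Nova1 had none. The 76 include the 8 reads at the Dock4 place, without which Dock4 would not have 5 or more. The list was chosen with earlier results of these data known. It took 6 of 15 and 11 of 28 labelled junctions in RP105 libraries labelled ATM-deficient and WT, and 14 of 34, 38 of 83 and 7 of 12 in ATM-deficient, KU55933 and WT libraries under aCD40/IL4. A list of 24 genes of lymphocyte activation, signalling and proliferation took 11, which is 6.40%. Of its members 8 had a junction, led by Dnmt3a with 3 and the chromatin remodelling subunit Baz1a with 2, both in RP105 libraries labelled WT. Id2, Odc1, Rrm2, Nfkbia, Ahr and 11 others had none. Gene lengths on mm9 were not used here, so neither share was set against the length that the genes span.

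The Dock4 place shown above was hit at the same base on the + strand, 41542886, in 8 libraries from 6 sequencing runs: in replicates 1 and 3 labelled ATM-deficient and 2 and 3 labelled WT under RP105, and in ATM-deficient replicate 1, KU55933 replicate 1 and WT replicates 3 and 4 under aCD40/IL4. In all 8 the read carried bases between bait and prey that belonged to neither alignment, from 4 to 142 with a median of 75.5. The 13 bases directly before the prey were the same in the 8 reads, were not those of mm9 before this place, and also stood before the prey of 61 other junctions in the libraries. Whether these 8 reads stand for joins made in the cells was not tested, so the Dock4 count may hold as few as 2. Without places shared by 3 or more libraries, which in the region is this one, the ATM-deficient over WT fold change under aCD40/IL4 was 1.01 (edgeR adjusted p = 0.0130) and that of KU55933 over WT was 0.84 (adjusted p = 0.0449).

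The other 4 shared places each joined 2 libraries of 1 sequencing run. The unlabelled place at 3364809 and the Npas3 place at 54376487 were both in replicate 3 labelled ATM-deficient and replicate 3 labelled WT under RP105, each time with the same number of bases between bait and prey. The place at 35483821 was in KU55933 replicates 1 and 2, again with equal numbers, and the place at 68840238 was in ATM-deficient replicate 2 and WT replicate 3 under aCD40/IL4 with unequal numbers. Whether each library of a pair gained its junction independently was not tested. Some places also lay only 4 to 33 bases apart within 1 library and were counted separately. Under aCD40/IL4 such pairs were in KU55933 replicate 1 and among the 10 junctions of WT replicate 3. Under RP105 they were in replicate 1 labelled WT and replicate 3 labelled ATM-deficient. Whether they stand for separate joins was not tested. In all, 0.998% of the region's places were in 2 or more libraries, against 2.27% of all places outside chromosome 15.

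The share of joins with an overlap was not shown to differ from that elsewhere, and the other kinds of join were not tested. In the region 325 junctions had bases shared by bait and prey, 84 were joined with neither overlap nor extra bases and 103 had extra bases. Averaged over libraries, 61.7 ± 10.3% of the region's junctions and 60.2 ± 4.09% of the others outside chromosome 15 had an overlap (SD, n = 16 each), with an exact sign-flip p of 0.521. The median overlap was 2 bases in both. Between groups the overlap share was 64.5 ± 10.4% and 70.7 ± 6.47% in libraries labelled ATM-deficient and WT under RP105 (SD, n = 3 each), and 57.9 ± 5.33% in ATM-deficient (n = 3), 62.7 ± 9.22% in KU55933 (n = 3) and 54.9 ± 13.7% in WT libraries under aCD40/IL4 (n = 4). No difference between groups passed the exact permutation test, the lowest p being 0.114.

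CA-repeat starts, meaning prey whose first 30 bases hold at least 4 consecutive CA or TG units as in the last 2 sequences shown, made up 43 of the 512 junctions. In RP105 libraries labelled ATM-deficient they were 4 of 14, 3 of 12 and 5 of 24, and in those labelled WT 10 of 38, 3 of 18 and 4 of 44. Under aCD40/IL4 they were 2 of 41, 0 of 33 and 0 of 36 in ATM-deficient libraries, where the zeros allow up to 9.09% and 8.33%. They were 2 of 38, 2 of 77 and 8 of 100 in KU55933 libraries, and 0 of 37 over the 4 WT libraries, which allows up to 8.11%. The RP105 libraries were above the aCD40/IL4 libraries of the same genotype in every case, with exact permutation p of 0.0286 in WT libraries (adjusted p = 0.400) and 0.1 in ATM-deficient libraries (adjusted p = 0.480), each the smallest possible. Such starts were also unequal between groups elsewhere outside chromosome 15, at 20.3% and 9.73% in RP105 libraries labelled ATM-deficient and WT, and 1.36%, 4.35% and 1.49% in ATM-deficient, KU55933 and WT libraries under aCD40/IL4. The RP105 and KU55933 libraries, which held most of them, were those read on the other sequencer. Over the 16 libraries the region's share of such starts did not pass a test against the rest (9.20 ± 10.6% and 7.24 ± 7.52%, SD, n = 16 each, exact sign-flip p = 0.0984). With them left out, the RP105 over aCD40/IL4 fold change in WT libraries was 1.10 (edgeR adjusted p = 0.00284) and that of ATM-deficient over WT under aCD40/IL4 was 0.93 (adjusted p = 0.0144).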

How the data were processed

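Each row of the deposited files is a junction, with its prey position on build mm9 (per the labels), strand and the authors' gene label. A read count per junction, per the file headers, stands in 7 deposited files and entered no test. The column for bases between bait and prey carries no unit in the headers; reads were checked to learn that negative values are overlaps. The sources used here do not name the aligner or filters. Rows repeated in every position column were counted once (56 rows), and 3 mitochondrial rows were left out. Counts of junctions were fitted in edgeR 4.0.16 (R 4.3.3; quasi-likelihood) to all 16 libraries, with junctions outside chromosome 15 as library size, over 42 regions (every chromosome but 15 divided at 70 Mb, chromosome 12 also at 100 and 110 Mb and at Igh, 114427082 to 117342135), 258 windows of 10 Mb with at least 20 junctions, and 162 gene labels with at least 10. P-values were adjusted by Benjamini-Hochberg over each table, with a threshold of 0.05. Shares per library were compared by two-sided exact permutation, 7 measures in 6 comparisons, where groups of this size cannot give an adjusted p under 0.05. Intervals cover counting error only. The fits were tested on simulated data. The named windows, the 20 labels with most junctions, list members with at least 5 and places shared by 3 or more libraries follow a written rule; members and lists were chosen with earlier results of these data known. Alternatives were TMM, DESeq2 1.42.0, other library sizes, bounds, window sizes and filters, blocks, and each library left out.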

Additional observations from a re-analysis of the deposited data

Results flagged for a closer look

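In 2 windows, 1 WT library under aCD40/IL4 stood far from the other 3 by Dixon's criterion. That criterion flags about 1 in 20 groups by chance for continuous values, a rate that does not hold for such low counts: where 3 libraries are at 0, any junction in the other one meets it. Replicate 4 held 0.137 junctions per Mb per 1000 junctions outside chromosome 15 from 20 to 30 Mb, from 1 junction, where the others held 0. It held 0.410 from 60 to 70 Mb, from 3 junctions, where the others held 0, 0 and 0.0663.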

How the results depend on the processing

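Libraries held 8 to 100 junctions in the region and 8 to 10 in each WT library under aCD40/IL4, which limits every value against them. The RP105 over aCD40/IL4 call in WT libraries was kept in all alternatives run for it, which did not include the sequencing run as a block. The log2 fold change of ATM-deficient over WT under aCD40/IL4 lost its call when all of chromosome 15 but 1 Mb either side of the break was kept (0.75) and with the sequencing run as a block (0.67). That of KU55933 over WT passed with the replicate block (1.02), a bound of 80 Mb (0.98), CA-repeat starts left out (0.76), shared places left out (0.84) and only the compared groups (0.80). Under RP105 the genotype difference turned with TMM (-0.028), library sizes without chromosome 12 (-0.10) and a bound of 80 Mb (-0.32), and the interaction passed at 80 Mb (-1.30). With only 1 Mb either side of the break left out, the interaction shrank to -0.33 and the genotype difference under RP105 was 0.42, and with the run as a block the interaction was -0.51, none of which passed. Leaving out 1 library gave 1.10 to 1.44 for RP105 over aCD40/IL4 in WT libraries. Under aCD40/IL4 it gave 0.82 to 1.17 for ATM-deficient over WT and 0.60 to 1.00 for KU55933 over WT. The genotype difference under RP105 ran from -0.10 to 0.16 and the interaction from -1.14 to -0.79. The cause was not tested.

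Deviations of same-numbered libraries correlated by -0.136 to 0.155 over 258 windows. With so few junctions per window, these correlations cannot exclude that replicate numbers pair the libraries. The highest value, 0.155, was between the replicate 3 libraries under RP105, which shared a sequencing run. The replicate block changed no other call of the region than that above. With it, the window from 20 to 30 Mb passed between stimuli in WT libraries (edgeR adjusted p = 0.0203), as it did without WT replicate 4 under aCD40/IL4 (0.0185).

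Called windows numbered 1 for ATM-deficient over WT under aCD40/IL4 (2 at 5 Mb, 2 at 20 Mb, 2 by DESeq2), 1 for KU55933 over WT (4 at 20 Mb, 4 with TMM, 0 to 6 without 1 library), 1 for ATM-deficient over KU55933 (2 with the replicate block, 3 by DESeq2, 1 to 2 without 1 library), 2 between genotypes under RP105 (4 at 20 Mb, 5 with TMM, 1 to 3 without 1 library), 7 between stimuli in WT (2 by DESeq2, 2 to 8 without 1 library) and 11 in ATM-deficient libraries (6 at 5 Mb, 7 at 20 Mb, 3 by DESeq2, 3 to 6 without 1 library).

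Small differences between groups in per-library measures turned sign in places. With a bound of 60 Mb this held for mean position between stimuli in ATM-deficient libraries (1.05 Mb). With 80 Mb it held for the gene-label share in ATM-deficient over WT under aCD40/IL4 (4.62 points) and RP105 (-4.49), and between stimuli in WT (4.31) and ATM-deficient libraries (-4.79), for the overlap share in ATM-deficient over WT under aCD40/IL4 (-6.28) and RP105 (0.613) and KU55933 over WT (-0.409), and for the share outside chromosome 15 between genotypes under RP105 (-0.582). Without CA-repeat starts it held for the plus-strand share between genotypes under RP105 (2.38) and between stimuli in WT (-1.31), and the overlap share between stimuli in ATM-deficient libraries (-5.23). Without shared places it held for the gene-label share in ATM-deficient over WT under aCD40/IL4 (1.30) and between stimuli in ATM-deficient libraries (-1.29). Without 1 library the ranges that crossed or met 0 were, for ATM-deficient minus WT under aCD40/IL4, -2.50 to 4.48 Mb in mean position, -4.73 to 1.201 in gene-label share, -0.411 to 9.77 in overlap share and 0 to 2.44 in CA-repeat share; for ATM-deficient minus WT under RP105, -0.151 to 0.237 in the share outside chromosome 15 and -12.7 to 1.91 in plus-strand share; for KU55933 minus WT, -9.60 to 3.18 in plus-strand share; for ATM-deficient minus KU55933, -4.72 to 0.598 in share of the centromeric part, -5.34 to 1.65 Mb in mean position and -8.45 to 0.421 in overlap share; and between stimuli in ATM-deficient libraries, -4.45 to 2.53 Mb in mean position and -3.90 to 4.43 in gene-label share.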
